A study of Felis catus with 12 samples.

Results

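The thick filament of the cardiac sarcomere is built from myosin, and 7 genes that encode its heavy chains, light chains and binding protein were read in the left ventricle of 12 cats. The members were the rows of the deposited gene table named for them: MYH7 and MYH6 (heavy chains), MYL2 and MYL7 (regulatory light chains), MYL3 and MYL4 (essential light chains) and MYBPC3 (cardiac myosin binding protein C). All 7 were found among 30785 listed rows, 6 by symbol and MYH7 under LOC101096736, whose gene ID belongs to MYH7 in RefSeq. All 7 were among the 8715 rows that had at least 10 reads in at least 3 of 10 libraries, although MYL4 reached 10 reads in 7 and MYL7 in 6 of those 10.

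Left ventricular free wall was taken post mortem from client-owned cats, and its mRNA was read directly, without amplification, by nanopore sequencing. Each cat gave 1 library, and 3 flow cells took 4 libraries each. The cats were grouped by outcome. The group with congestive heart failure (HF) held 6 cats (11, 15, 30, 31, 35 and 37). The group with arterial thromboembolism (ATE), a clot that blocks a peripheral artery, held 3 (cats 10, 23 and 38). Only 1 cat (36) had no known cardiac death. The study describes its grouping as HF with or without ATE. Its cohort list gives heart failure beside ATE for cat 10, cardiomegaly beside ATE for cat 23 and ATE alone for cat 38. HF below thus means congestive HF without listed ATE. Libraries labelled as cats 22 and 29 were left out of the outcome and trait comparisons, except in named alternatives, because these numbers are not among the sequenced cats that the study lists, which holds 2 other cats in their place. Whose tissue they hold is thus in doubt. No treatment or genotype is given for the groups, and the cats differed in age, sex and breed. In the study's cohort list cats 15 and 35 were Maine Coons and cat 11 was a Birman, all with HF. The rest of assigned outcome, among them all 3 with ATE, were domestic short hair. Breed was thus not balanced between the outcomes, and its part was not tested. Each p-value below measures the spread between cats. Flow cell A carried cats 11, 23, 30 and 31, flow cell B cats 10, 15, 35 and 36, and flow cell C cats 22, 29, 37 and 38, so that 3 of the 6 cats with HF and 1 of the 3 with ATE were on flow cell A. Libraries held 789257 to 2263110 reads on genes, and 3 reads, used here as the limit that a count of 0 allows, were worth 1.33 to 3.80 CPM (reads scaled to a common library total). Values below are reads divided by a size factor of the library, as deposited, unless reads are named.

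Myosin heavy chain is the motor that pulls on actin. The ventricle of large mammals relies mainly on the slow β-heavy chain (MYH7), while the faster α-heavy chain (MYH6) prevails in the atrium. Each heavy chain binds a regulatory and an essential light chain, MYL2 and MYL3 in the ventricle and MYL7 and MYL4 in the atrium, and myosin binding protein C tethers heads to the filament and tunes their recruitment. Variants in MYBPC3 and MYH7 are common causes of hypertrophic cardiomyopathy in people, and MYBPC3 variants are known in cats.

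The ventricular members were among the most abundant transcripts of these hearts. The 7 members made up 8.56 to 13.6% of all reads on genes in each library. By mean value MYL2 ranked 1 among the 8715 tested genes, MYL3 4, MYH7 29, MYBPC3 179, MYH6 877, MYL7 1643 and MYL4 6200. In direct RNA sequencing 1 read stands for 1 molecule, but long transcripts are often read in part or lost, and values were not divided by transcript length, so these ranks order read numbers and not molar amounts.

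**Figure D1:**
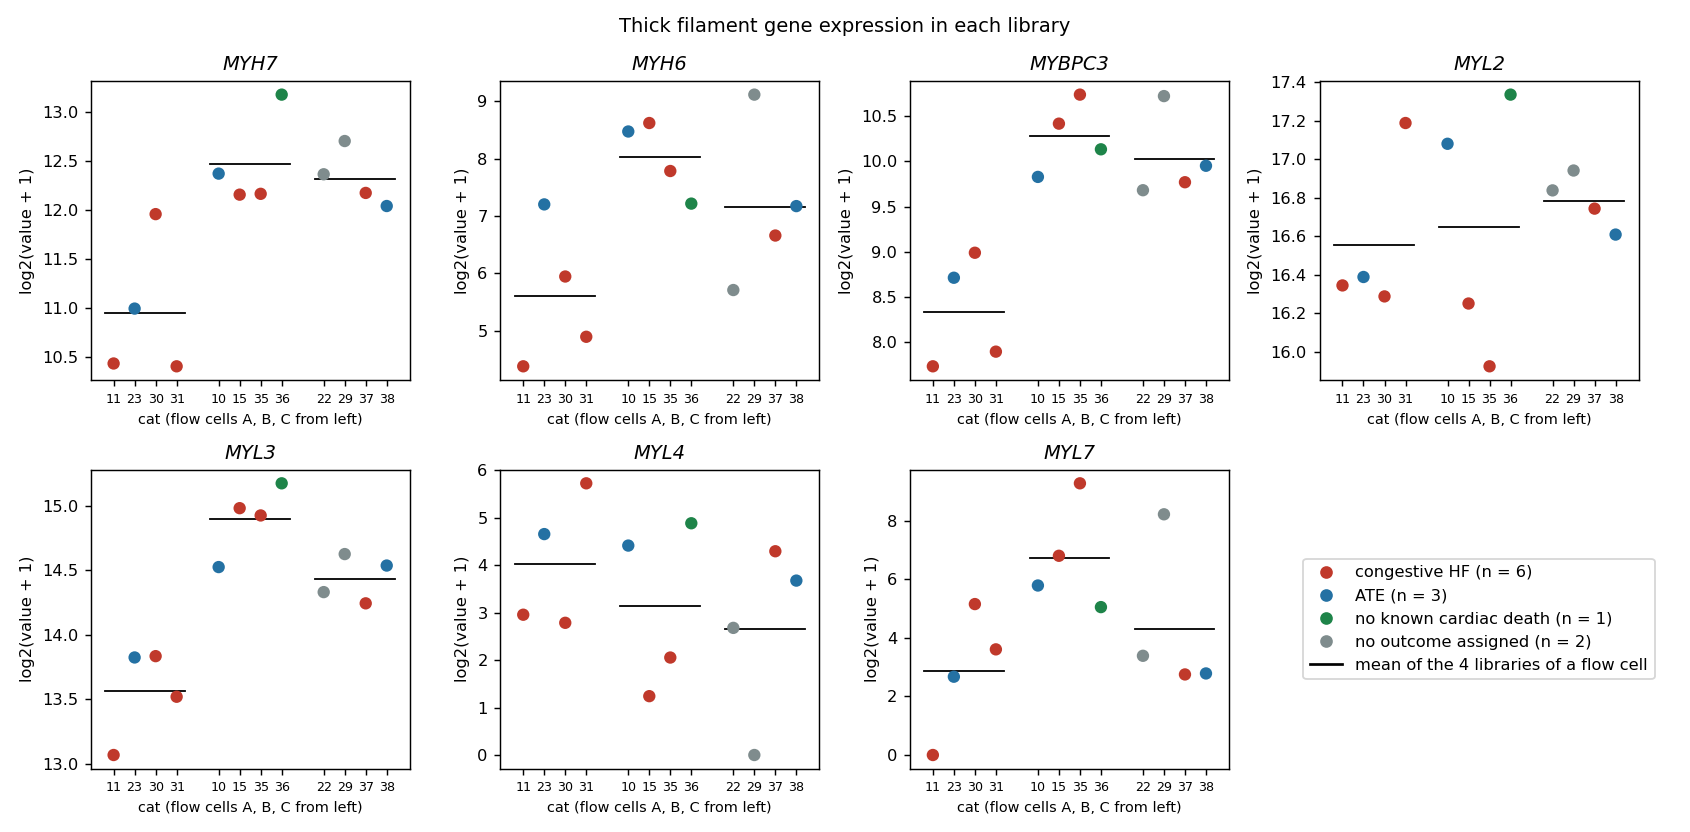
Level of each member in each library, as log2 of the deposited value plus 1 (vertical axis), with libraries ordered by flow cell (horizontal axis, cat numbers), points coloured by outcome and black lines for the mean of the 4 libraries of a flow cell. MYH7, MYBPC3 and MYL3 were lower in all 4 libraries of flow cell A than in the other 8, and MYL2 was not.

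MYH7, the slow heavy chain, had values of 1386, 2043, 3984 and 1358 in cats 11, 23, 30 and 31 on flow cell A. On flow cells B and C its lowest value was 4219 (cat 38), its median 4954 and its highest 9273 (cat 36, without known cardiac death). The 2 sets of libraries did not overlap, and the highest value was 6.83 times the lowest.

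MYBPC3 followed the same split. It stood at 212, 419, 508 and 238 in cats 11, 23, 30 and 31, and from 820 (cat 22) over a median of 1055 to 1704 (cat 35) in the other 8 libraries. Its highest value was 8.02 times its lowest. Set against MYH7 in the same library, MYBPC3 gave 12.1 reads per 100 MYH7 reads in cat 36 and 37.1 in cat 35, with a median of 18.2.

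MYL3, the ventricular essential light chain, stood at 8579, 14505, 14609 and 11740 in cats 11, 23, 30 and 31. On flow cells B and C it lay between 19412 (cat 37) and 37044 (cat 36), with a median of 24551, again without overlap.

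MYL2, the ventricular regulatory light chain, varied least, 2.65 times between its lowest and highest value. It stood at 83258, 85820, 80038 and 149212 in cats 11, 23, 30 and 31, and from 62266 (cat 35) over a median of 113423 to 165234 (cat 36) elsewhere. The sets of libraries overlapped. The 2 ventricular light chains were thus not in a fixed ratio: MYL3 gave 7.87 reads per 100 MYL2 reads in cat 31 and 50.0 in cat 35.

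MYH6, the fast heavy chain, was the most variable of the members read in every library. It stood at 19.8, 146, 60.6 and 28.7 in cats 11, 23, 30 and 31, and from 51.3 (cat 22) over a median of 184 to 555 (cat 29) elsewhere. The highest value was 28.1 times the lowest, on 36 to 501 reads. MYH6 and MYH7 are closely related genes. How alike their sequences are in the cat was not computed, and part of the reads may have been assigned to the wrong copy.

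MYH6 made up a minor share of the reads of both heavy chains in every library. The share was lowest in cat 22 at 0.962% (95% Wilson interval 0.702 to 1.32) and highest in cat 15 at 7.92% (7.09 to 8.85), with a median of 2.70%. Cats 29, 23 and 10 had shares of 7.68%, 6.69% and 6.27%, next to cat 15. Cats 11, 30 and 36, at 1.41%, 1.50% and 1.57%, had intervals that overlapped one another. These intervals cover counting error only.

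MYL7, the atrial regulatory light chain, was rare in most libraries and abundant in a few. It had 783 reads in cat 35, 267 in cat 29 and 81 in cat 15, but 48 or fewer in the other 9 libraries and 0 in cat 11. As a share of MYL7 plus MYL2 reads it was 0.981% in cat 35 (95% Wilson interval 0.915 to 1.05), 0.235% in cat 29 (0.208 to 0.264) and 0.141% in cat 15 (0.114 to 0.175). The median over the 12 libraries was 0.0137%, and the 0 in cat 11 allows a share of up to 0.00174%.

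MYL4, the atrial essential light chain, was the rarest member, with 0 to 65 reads. It was highest in cat 31 with 65 reads, followed by cat 36 with 32, and cat 29 had none. Its share of MYL4 plus MYL3 reads was 0.440% in cat 31 (0.345 to 0.560) and had a median of 0.0631%, and the 0 in cat 29 allows up to 0.0131%. The 2 atrial light chains were not high in the same libraries: cats 35 and 29, highest in MYL7, had 4 and 0 MYL4 reads. Over the 12 libraries the values of MYL4 and MYL7 had a Pearson's r of -0.54 on the log2 scale, given as a description.

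Other transcripts typical of the atrium differed in level. Sarcolipin (SLN), which restrains the calcium pump in atrial muscle, had 0 to 2 reads per library, and BMP10, an atrial growth factor, had 0 in all 12. In cat 35, highest in MYL7, MYBPHL, an atrial relative of myosin binding protein, had 12 reads and the atrial potassium channel gene KCNJ3 had 29, against 0 to 70 and 4 to 71 over all libraries. GJA5, the connexin of atrial and conducting muscle, was highest in cat 35 among the 12 libraries, at 41.0 CPM, with cat 11 next at 25.6 CPM. PAM, an enzyme that amidates peptides and is abundant in atrial muscle, had a median value of 966 (482 to 1379), above that of MYBPC3 (889). Of 12 atrial markers, 2 were at 0 in every library, and the summed level of the list, to which PAM contributed most, was 483 to 1139 CPM. The part of atrial tissue in the MYL7 reads was not tested.

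**Figure D2:**
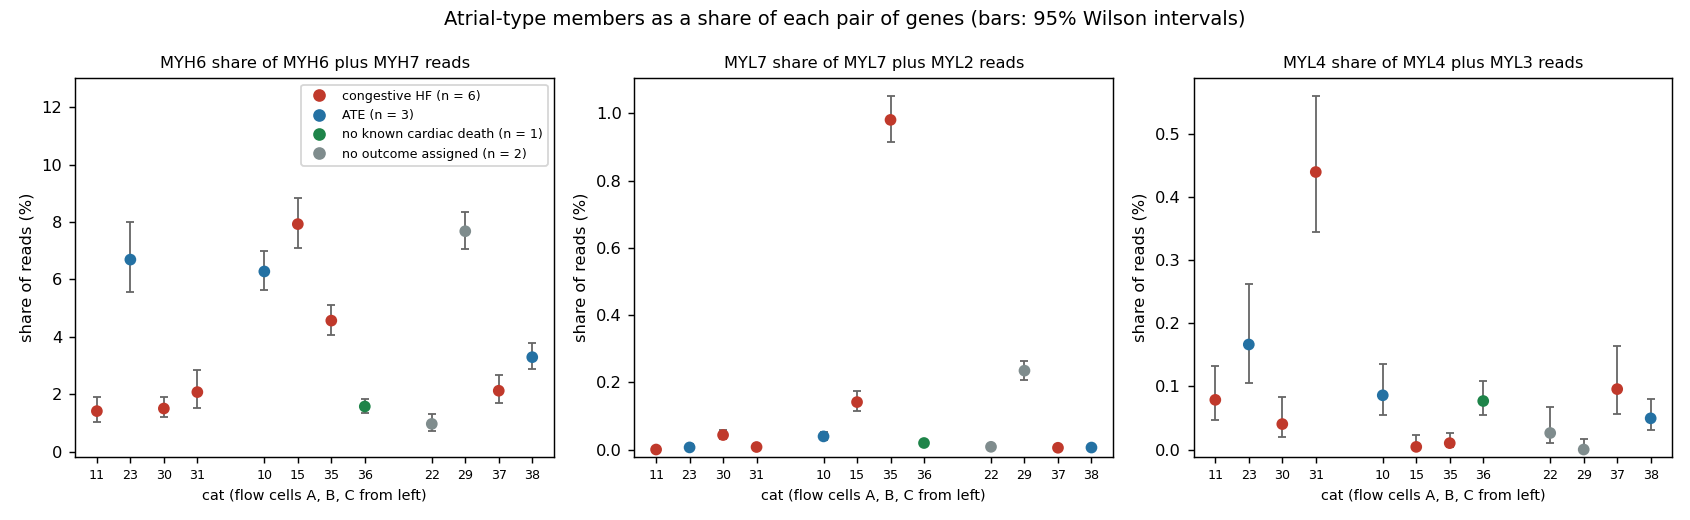
Share of reads, in percent, that the atrial-type gene took of each pair (MYH6 with MYH7, MYL7 with MYL2, MYL4 with MYL3) in each library, ordered by flow cell on the horizontal axis, with bars for 95% Wilson intervals and colours for outcome. MYH6 shares ranged from 0.962 to 7.92%, MYL7 stood out in cat 35 at 0.981% and MYL4 in cat 31 at 0.440%.

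The study grouped its cats by outcome, and the members were compared between cats with HF and cats with ATE. The paper also measured MYH6 and MYH7 in left ventricle by quantitative PCR, and reported significantly more MYH7 than MYH6. For neither gene did it report a significant difference between outcome groups or a relation to myocardial fibrosis, and their ratio did not differ between outcomes. None of the members passed the test between these groups. The difference in log2(value + 1), HF minus ATE, was -0.25 for MYH7 (95% interval -1.29 to 0.78), -0.24 for MYBPC3 (-1.56 to 1.08), -0.24 for MYL2 (-1.09 to 0.62) and -0.20 for MYL3 (-1.15 to 0.75). It was -1.24 for MYH6 (-2.89 to 0.42), -1.07 for MYL4 (-2.77 to 0.62) and 0.85 for MYL7 (-2.39 to 4.09). The adjusted p-values of limma were 0.960 to 0.985. Among all 8715 genes limma called 0 (0%), with 384 at an unadjusted p under 0.05, while edgeR called 0 and DESeq2 1 (KERA). With flow cell as a covariate the intervals were narrower, -0.69 to 0.72 for MYBPC3, -0.78 to 0.65 for MYH7, -0.99 to 0.54 for MYL2 and -0.67 to 0.54 for MYL3. MYH6 then differed by -1.06 (-1.97 to -0.15, limma unadjusted p = 0.0254, adjusted p = 0.908), so that it did not pass either. The differences of the rarer members moved with the processing and with single cats. That of MYL7 was -0.0860 without cat 35, the cat with the most MYL7 reads. MYH6 was -0.13 without the libraries of flow cell A, -0.65 by DESeq2, -0.66 by edgeR and -0.76 with the library labelled cat 22 entered as ATE, MYL4 was -0.36 by DESeq2 and -0.34 by edgeR, and MYL7 was 2.58 by DESeq2 and 2.59 by edgeR.

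The MYH6 values illustrate the spread. In cats with HF MYH6 ran from 19.8 over a median of 80.4 to 393, and in cats 10, 23 and 38 with ATE it was 355, 146 and 143. The mean MYH6 share was 3.26% ± 2.56 (SD, n = 6) in HF and 5.42% ± 1.86 (SD, n = 3) in ATE, a difference of -2.15 percentage points (exact two-sided permutation p = 0.262, adjusted 0.611 over 14 tests of shares and ratios). The 84 choices of cats allow a p of 0.0119 at the least. The other 6 shares and ratios had an exact permutation p of 0.583 to 0.952 between HF and ATE. Without cat 15 the difference was -3.08 points (exact permutation p = 0.0357), and without the 4 libraries of flow cell A it was 0.0873 points (exact permutation p = 1).

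Several members differed between flow cells. On flow cell A, MYBPC3 was lower than on the others, with a difference in log2(value + 1) of -1.82 (95% interval -2.38 to -1.26, limma adjusted p = 0.00233), MYH7 with one of -1.45 (-2.03 to -0.86, limma adjusted p = 0.00928) and MYL3 with one of -1.11 (-1.60 to -0.62, limma adjusted p = 0.0146). These 3 of the 7 members passed the test, all lower on flow cell A, where 5.12% of all tested genes were called, 3.5% lower and 1.62% higher. All values of flow cell A lay below all others for the same 3 members and for 2.51% of all genes. For each of them the exact permutation p over all choices of 4 of 12 libraries was 0.00202, the smallest that these allow. There was 1 flow cell A, so these p-values and those of limma measure the spread between cats and not between flow cells. They do not account for the choice of flow cell A among the 3.

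The other 4 members did not pass. The difference was -1.99 for MYH6 (-3.19 to -0.79, limma adjusted p = 0.0521). This was close to the threshold, below it in some alternatives and above it in others, such as edgeR (0.0697) and limma without cat 11 (0.239). The difference was -0.16 for MYL2 (-0.78 to 0.46, limma adjusted p = 0.790), 1.13 for MYL4 (-0.60 to 2.85, limma adjusted p = 0.446) and -2.65 for MYL7 (-5.04 to -0.25, limma adjusted p = 0.186). The median over the members was -1.45, against 0.03 over all tested genes. Cat 11 carried much of the comparison: without it 51 genes were called in place of 446, and MYH7 (-1.27, limma adjusted p = 0.0595) and MYL3 (-0.94, limma adjusted p = 0.0865) no longer passed, while MYBPC3 did. Without cat 31 the count was 129 and without cat 15 it was 295. On reads without any scaling the median over all genes was 0.41 in place of 0.03. There 75 genes were called higher and 5 lower in place of 141 and 305, and of the members MYBPC3 alone passed.

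**Figure D3:**
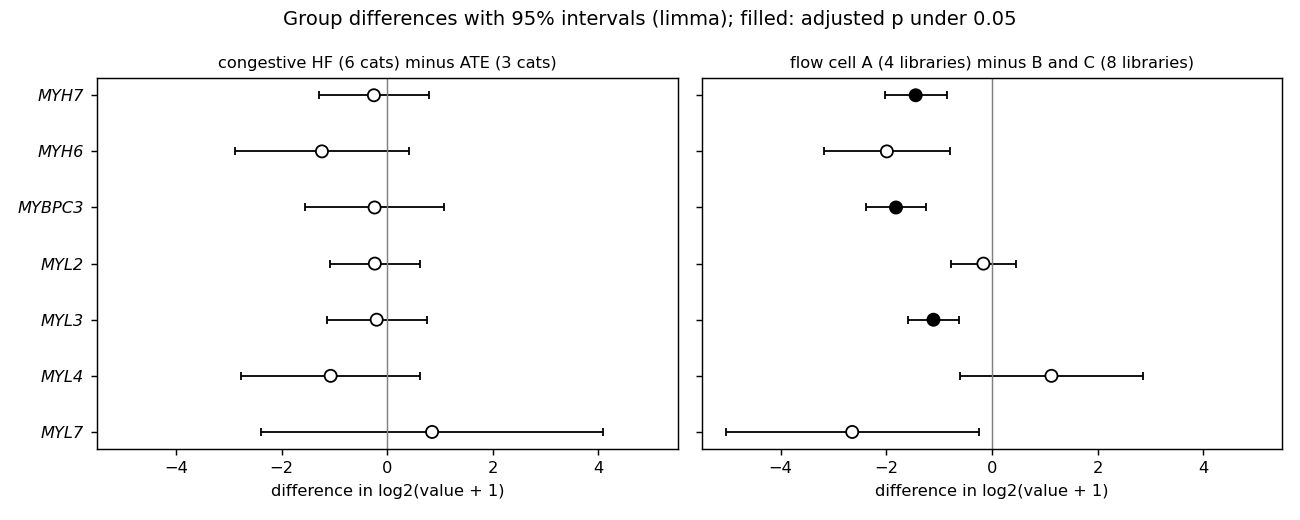
Difference of each member in log2(value + 1) between cats with congestive HF and cats with ATE (left) and between flow cell A and flow cells B and C (right), with 95% intervals from limma; filled points had an adjusted p under 0.05. None was filled on the left, and MYBPC3, MYH7 and MYL3 were filled on the right.

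The ratio of MYL2 to MYH7 does not depend on the scaling of a library. In reads per MYH7 read, MYL2 stood at 60.1, 42.0, 20.1 and 110 in cats 11, 23, 30 and 31, and at 13.5 to 26.1 in the other 8 libraries, with a median of 20.5. The mean was higher by 37.6 on flow cell A (exact permutation p = 0.0101, adjusted 0.141 over 14 tests of shares and ratios), so that the difference did not pass after adjustment. The ratio was chosen after the data were seen, and MYH7 was itself lower on flow cell A while MYL2 was not. Its p-value is thus a description only. Without cat 31 the difference was 20.4. MYL4 made up a larger share of its pair on flow cell A by 0.138 percentage points (exact permutation p = 0.0283, adjusted 0.198), and this too did not pass. Without cat 31 it was 0.0516 points (exact permutation p = 0.139), and without cat 23 it was 0.143 points (exact permutation p = 0.0848). Of the other 5 ratios and shares between flow cells none had an exact permutation p under 0.05.

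Other sarcomere genes of the same libraries moved in part with the members. Of 20 other thick filament genes 10 were tested, and MYOM2, an M-band protein, was lower on flow cell A (-0.93, limma adjusted p = 0.0468) while MYL1, the essential light chain of fast skeletal muscle, was higher (3.98, limma adjusted p = 0.0155). Titin (TTN), the giant spring along the filament, differed by 0.05 (limma adjusted p = 0.907). Of 12 tested thin filament genes 4 were lower, among them TNNI3 (-1.64) and TNNT2 (-1.05), the inhibitory and tropomyosin-binding troponins, and 1, TPM4, was higher (1.07).

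Genes that fold or regulate myosin were also mixed. Of 12 tested, SMYD1, a methyltransferase that assists myosin folding (-1.64, limma adjusted p = 0.0323), and FHOD3, a formin of the cardiac sarcomere (-1.26, limma adjusted p = 0.0151), were lower on flow cell A. PPP1CB, the catalytic subunit of myosin phosphatase, was higher (0.90, limma adjusted p = 0.0202). The cardiac myosin light chain kinase gene MYLK3 differed by -1.22 (limma adjusted p = 0.0915). Of 4 tested non-muscle and smooth muscle myosin genes, 1 was higher, MYH9 (1.28), a heavy chain of non-muscle myosin.

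Markers of cell types moved with the flow cell too. Of 12 cardiomyocyte markers 6 were called lower on flow cell A and none higher. Their summed level was 34362 to 37347 CPM on flow cell A and 36146 to 50641 on the others. Of the markers not called, ACTC1 had a mean value of 9252 on flow cell A and 7145 on the others. CSRP3 had means of 9764 and 5845. Of 3 tested smooth muscle markers 2 were higher, CNN1 (5.90) and TAGLN (2.63). The 5 listed had summed levels of 369 to 1026 CPM on flow cell A and 67.7 to 235 on the others. CNN1 had 537, 57, 56 and 551 reads in cats 11, 23, 30 and 31 and 0 to 17 elsewhere. The size of its difference thus depends in part on the 1 added to each value. Of 6 fibroblast markers 2 were higher, COL1A1 (2.63) and COL3A1 (1.84), with sums of 884 to 3012 and 208 to 1477. None of the 5 endothelial, 4 leukocyte, 6 atrial and 5 ventricular markers tested was called. MYL2 differed by -0.16 between flow cells, and TTN had a mean value of 2541 on flow cell A and 2449 on the others. In bulk tissue, the number of cardiomyocytes and the RNA of a gene in each of them cannot be told apart. The part of cell makeup in the lower MYBPC3, MYH7 and MYL3 was not tested. Each cat was read on 1 flow cell only, so the flow cell and its cats cannot be told apart.

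**Figure D4:**
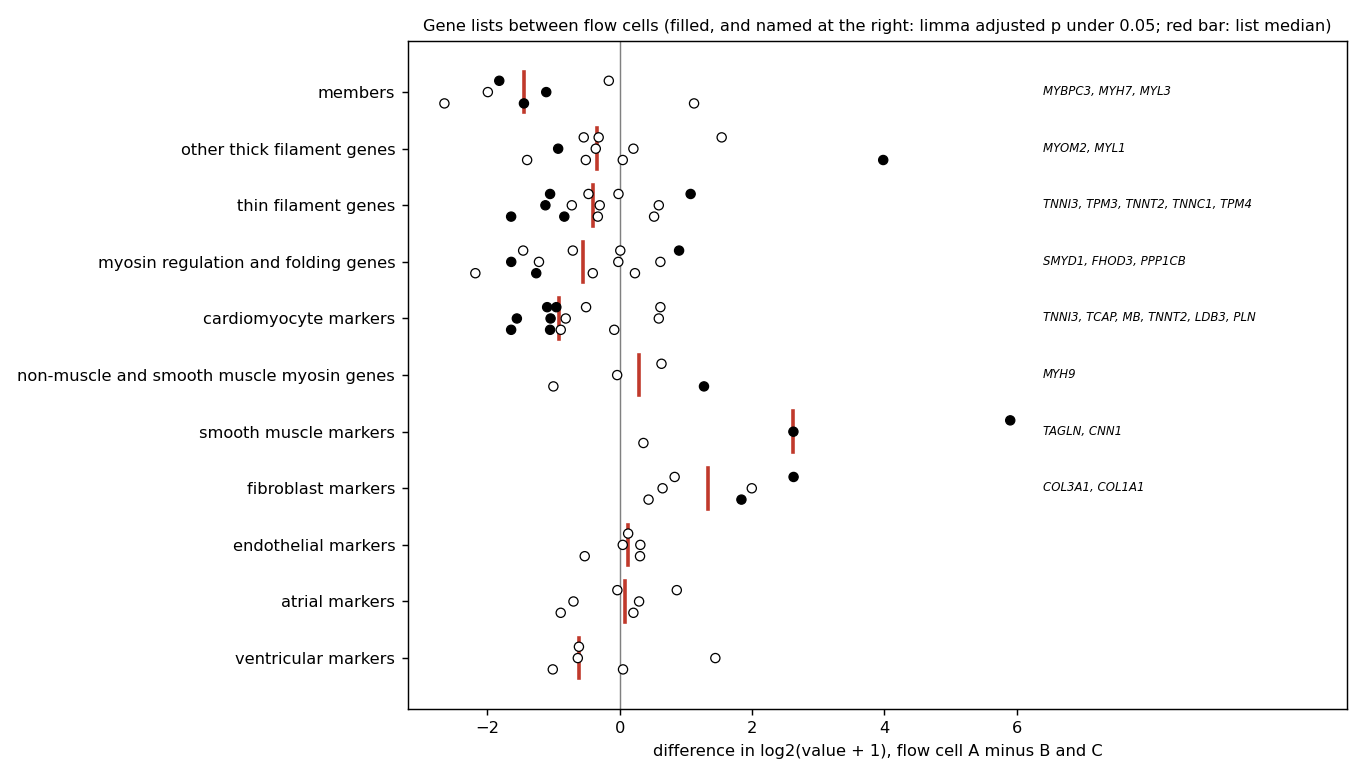
Difference in log2(value + 1) between flow cell A and flow cells B and C (horizontal axis) for each tested gene of each list (rows), with red bars for list medians; filled points had a limma adjusted p under 0.05 and are named at the right. The member median was -1.45, smooth muscle and fibroblast markers lay mostly above 0, and cardiomyocyte markers mostly below.

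The members differed in how closely they followed one another across the 12 libraries. On the log2 scale Pearson's r was 0.93 between MYBPC3 and MYL3, 0.88 between MYBPC3 and MYH7 and 0.87 between MYH7 and MYL3. With the flow cell means removed these values were 0.76, 0.54 and 0.62. MYL2 stood apart, with an r of -0.05 to MYBPC3, 0.10 to MYL3 and 0.24 to MYH7. All points share libraries and their scaling, so these values are descriptions.

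The gene most like MYL3 was TCAP, the titin cap at the Z-disc (r = 0.98 over 12 libraries, 0.92 after centring on flow cells). MYBPC3 was most like LRPAP1, a chaperone of lipoprotein receptors (0.96, 0.81), and MYH7 most like ATP5F1C, a subunit of mitochondrial ATP synthase (0.93, 0.77), followed by LDHB, the heart type lactate dehydrogenase (0.93, 0.93). MYH6 was most like GSS, glutathione synthetase (0.92, 0.96), followed by LRSAM1 (0.92, 0.85), which had 0 to 32 reads. SLC2A4, the insulin-regulated glucose transporter, came next (0.91, 0.88). MYL2 was most like ANAPC15, a subunit of the anaphase-promoting complex (0.92, 0.93), MYL4 most like ZNF106 (0.91, 0.89) and MYL7 most like GALNT15 (0.91, 0.85). MYL4 and MYL7 rest on few reads, and weak counts limit what such values mean.

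The study related gene expression to fibrosis, the connective tissue share of the myocardium, and to age. Across 8 cats with a fibrosis measurement, Spearman's rho was -0.43 for MYBPC3 and MYL7, -0.33 for MYH7, -0.29 for MYL3, 0.14 for MYH6, 0.19 for MYL2 and 0.24 for MYL4. The exact permutation p-values were 0.299 to 0.752, adjusted 1. Pearson's r ran from -0.37 (MYH7) to 0.23 (MYH6), with exact permutation p-values of 0.370 to 0.971. Without the 2 cats farthest from the median fibrosis it ran from -0.66 (MYL7) to 0.52 (MYL4), with exact permutation p-values of 0.142 to 0.728. Over all genes the Spearman test called 0 (0%) after adjustment and 247 (2.83%) at an unadjusted p under 0.05, and none of the members was among the latter. On reads without scaling MYH7 had a rho of -0.81 with fibrosis (exact permutation p = 0.0218, adjusted 0.728). In that setting the median rho over all 8715 genes was -0.36. There 418 genes had an unadjusted p under 0.05, 413 of them with a negative rho. Leaving out single cats moved MYBPC3 and MYL7 from -0.14 (without cat 35) to -0.71 (without cat 15).

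MYL2 fell with age at an unadjusted threshold only. Across 9 cats its rho with age was -0.77 (exact permutation p = 0.0214, adjusted 0.851) and Pearson's r was -0.69 (exact permutation p = 0.0456, adjusted 0.962). Over all genes 0 (0%) passed after adjustment and 415 (4.76%) had an unadjusted p under 0.05, so that 1 member in 7 below it is no more than a description. Centred on flow cells, r was -0.71 (exact permutation p = 0.0972), and without the 2 cats farthest from the median age it was -0.50 or -0.51, depending on which of 2 equally distant cats was left out (exact permutation p = 0.243 and 0.242), over 7 cats and a narrower range of ages. Leaving out single cats kept rho between -0.90 and -0.67.

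The other members had a rho with age of -0.65 (MYL4, exact permutation p = 0.0666), -0.02 (MYH7), 0 (MYL3), 0.12 (MYBPC3), 0.23 (MYH6) and 0.28 (MYL7). After centring on flow cells Pearson's r was 0.80 for MYBPC3 (exact permutation p = 0.108) and 0.71 for MYH6 (exact permutation p = 0.118), against 0.18 and 0.31 without centring. The only cat with a fibrosis value on flow cell C drops out on centring, which leaves 7 cats. A single flow cell held 1 to 4 cats with a value of either trait, too few for a correlation of its own.

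**Figure D5:**
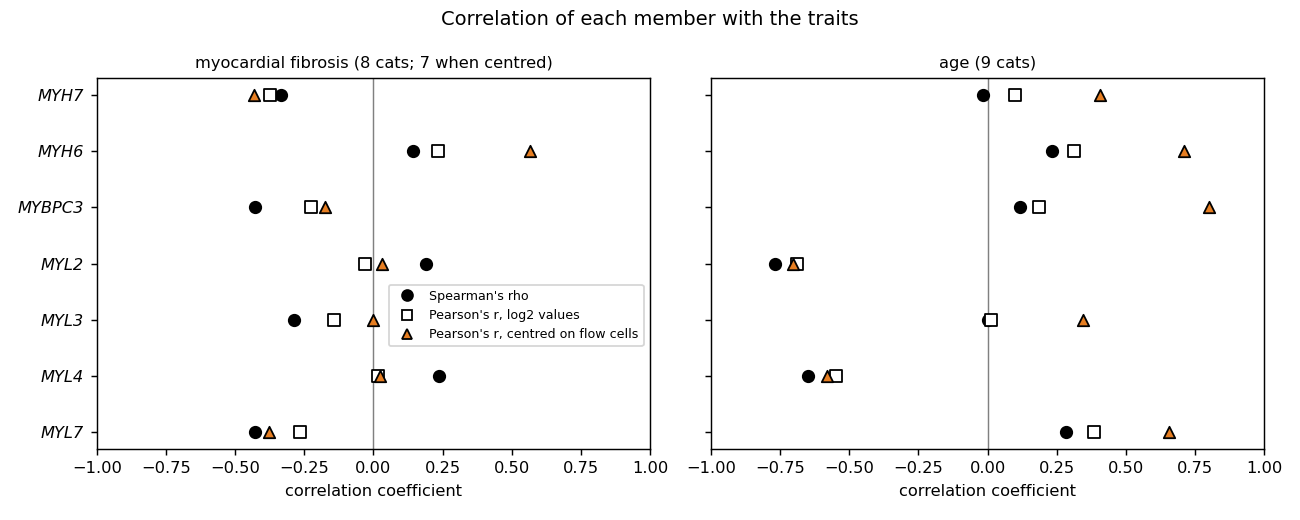
Correlation of each member with myocardial fibrosis (left) and age (right), as Spearman's rho (circles), Pearson's r on log2 values (squares) and Pearson's r after centring on flow cells (triangles). None passed adjustment over all genes, and MYL2 with age was the lowest, at a rho of -0.77.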

How the data were processed

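Direct RNA libraries of the left ventricle from 12 cats were base-called by the authors with Guppy 6.3.9, kept above a Phred score of 7, mapped with Minimap2 to felCat9 and counted with FeatureCounts. Deposited signal values are the reads of a gene over a size factor of its library. All values (100%) were whole multiples of 1 read within 1e-06, and recomputed median-of-ratios factors matched. Long transcripts may be read in part, and paralogous copies may share reads. Groups follow the cat number in the labels and the study's list of outcomes, fibrosis and age.

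Genes with at least 10 reads in 3 of 10 libraries of assigned outcome were tested with limma 3.58.1 on log2(value + 1), two-sided, with Benjamini-Hochberg adjustment at 0.05. edgeR 4.0.16 and DESeq2 1.42.0 on the recovered whole reads were alternatives, as were other filters, pseudocounts and scalings, and leaving out each library. Shares and ratios (14 tests) used exact permutation tests, and traits used Spearman's rho with exact permutation (scipy 1.17.1). The fit was tested on simulated data. Named genes were the 7 members, their 3 most similar genes by Pearson's r, of which some are given, and fixed lists. Members and lists were chosen with earlier results of these data known, and the 4 ratios of reads were chosen after the data were seen.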

Additional observations from a re-analysis of the deposited data

Results flagged for a closer look

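In 42 groups looked at, a Dixon test at the 95% level marked 7 values as far from the rest of their group. By chance it marks about 1 in 20 groups. The 7 are not independent, as the value and the share of the same gene and cat recur among them. On flow cell A, MYL2 of cat 31 was 149200 against 80040 to 85820 in the other 3 libraries. Among the cats with HF, MYL4 of the same cat was 51.84 against 1.362 to 18.6, and its share of MYL4 plus MYL3 reads was 0.4397% against 0.004202 to 0.09571%. MYL7 of cat 35 was 616.8 among the cats with HF, against 0 to 110.3. Its share of MYL7 plus MYL2 reads was 0.9808%, against 0 to 0.1412% in the other cats with HF and 0.005216 to 0.2347% in the other libraries of flow cells B and C. The MYH6 share of cat 23 was 6.687% on flow cell A, against 1.408 to 2.07%.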

How the results depend on the processing

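Of the flow cell comparisons of the members, MYBPC3 kept its direction and passed under every alternative tried, with adjusted p-values of at most 0.0451 and, leaving out single libraries, 0.0187. MYH7 lost its call on unscaled reads (adjusted p = 0.139). MYL3 lost its call on unscaled reads (0.268) and with all genes that had a read (0.143). In the latter setting its limma unadjusted p was 0.00748, against 0.000176 in the main one. MYH6 passed with the 10 libraries of assigned outcome (0.0349), with a stricter filter (0.0418) and by DESeq2 (0.0412). It also passed without cat 23 (0.0188), cat 22 (0.0204) or cat 37 (0.0465). MYH6 did not pass in the other settings, among them edgeR (0.0697), all genes with a read (0.0714) and unscaled reads (0.110). Nor did it pass without any 1 of the other cats, with an adjusted p of up to 0.239 without cat 11. On flow cell A the genes called numbered 829 by DESeq2, 435 by edgeR and 80 on unscaled reads, and 51 to 501 when single libraries were left out. Between HF and ATE they numbered 1 by DESeq2 and 0 to 1 when single cats were left out (APOA1 without cat 37).

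Directions without a call turned as follows, and the cause was not tested. MYBPC3 between HF and ATE became 0.0845 by DESeq2, 0.0792 by edgeR, 0.0149 with flow cell as covariate and 0.42 without flow cell A, and MYL3 became 0.0194 on unscaled reads and 0.19 without flow cell A. Without flow cell A the MYH6 share differed by 0.0873 points and the MYL4 share by -0.0310 points. On unscaled reads MYL2 between flow cells became 0.23, and the correlations became -0.0667 for MYBPC3 with age and -0.0476 for MYH6 and -0.262 for MYL2 with fibrosis. In that setting the median rho over all genes was -0.35 with age and -0.36 with fibrosis. With cats 22 and 29 entered the correlations became -0.173 (MYBPC3), -0.00909 (MYH6) and -0.0545 (MYL7) with age and -0.0182 (MYH6) with fibrosis. Pearson's r was 0.0998 for MYH7 with age, 0.407 after centring on flow cells, and -0.0324 for MYL2 with fibrosis.

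Leaving out single cats gave ranges between HF and ATE of -0.63 to 0.0643 (MYBPC3), -0.66 to 0.0315 (MYH7), -0.44 to 0.0056 (MYL3) and -0.0860 to 1.87 (MYL7). They were -3.22 to -1.52 points for the MYH6 share, -0.0548 to 0.0438 points for the MYL4 share, -1.50 to 3.36 for MYBPC3 per 100 MYH7 reads, -0.119 to 8.32 for MYL3 per 100 MYL2 reads, -3.70 to 15.8 for MYL2 per MYH7 read and -0.277 to 1.05 for MYL3 per MYH7 read. With age rho ranged from -0.143 to 0.429 (MYBPC3) and -0.262 to 0.405 (MYH7), and with fibrosis from -0.143 to 0.357 (MYH6) and -0.214 to 0.429 (MYL2). Of all recomputed values, 658 kept their direction and side of the threshold or their size, 43 changed sign, 7 lost and 8 gained a call, and 7 counts moved by over 1.5 times. Depth limits MYL4 and MYL7, which rest on few reads.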
